A study of Mus musculus with 6 samples.

Results

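Matrix metalloproteinases (MMPs) are zinc-dependent enzymes that cut collagens and other proteins of the extracellular matrix, and tissue inhibitors of metalloproteinases (TIMPs) block them by binding to the catalytic site. Most MMPs are made as inactive precursors, and bone-forming cells use them to remodel collagen and to clear unmineralised matrix. The data described here are the 9 genes Mmp2, Mmp3, Mmp11, Mmp13, Mmp14, Mmp19, Timp1, Timp2 and Timp3, chosen by name from the 29587 gene rows of the deposited expression table, and all 9 had a row. They comprise 6 MMP and 3 TIMP genes.

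The libraries were made from mouse osteoblasts killed with ultraviolet light (apoptotic osteoblasts, apoOBs), 3 from young and 3 from old animals. The labels give the ages only as young and old, name no strain or sex, and state no genotype or treatment difference between the groups. Both groups went through the same culture: bone fragments gave adherent stromal cells, which were passaged, kept in osteogenic medium for 3 days and then irradiated for 0.5 h. The cells are therefore cultured descendants of bone cells, not osteoblasts taken directly from bone, and there are no living osteoblasts among the samples for comparison. Nothing in the labels ties each library to an animal or culture of its own, so p-values here reflect library-to-library spread, part of which may be technical.

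The files hold RPKM, a read count divided by gene length and by the size of the library, at 64881180 to 84535939 recovered reads per library. Among osteoblast genes, the type I collagen gene Col1a1 and the transcription factor gene Runx2 were expressed. The mineralisation gene Alpl averaged 0.614 ± 0.126 RPKM in the young libraries and 0.487 ± 0.0684 RPKM in the old (SD, n = 3 each). Bglap averaged 0.416 ± 0.0372 and 0.742 ± 0.138 RPKM, and Phex 0.228 ± 0.134 and 0.207 ± 0.0382 RPKM, in the same order. Of the 10 osteoblast markers, 7 reached 1 RPKM in any library. Young replicate 1 stood apart from every other library. Its correlation with young replicates 2 and 3 was 0.949 and 0.962 (Pearson's r across genes on the log2 scale; genes are not independent replicates), against 0.996 between those 2 libraries and 0.995 to 0.997 among the old. Mitochondrially encoded genes took 1.05% of its reads and 1.62 to 2.29% in the others. For this reason the fit without young replicate 1 is given for the members and lists whose calls it changed. Markers of osteoclasts, which resorb bone and make Mmp9, and of blood cells were in part at or near 0: Acp5 reached at most 0.0127 RPKM and the leukocyte gene Ptprc 0.00281 RPKM in any library. The 8 osteoclast list members with values summed to 31.7 to 40.4 RPKM in young and 29.7 to 32.1 RPKM in old, and 2 of the 8 (Ctsk and Itgb3) reached 1 RPKM. The 9 blood cell markers with values summed to 8.26 to 9.54 and 9.21 to 10.5 RPKM, mostly from Lyz2. The 5 adipocyte and 5 endothelial markers stayed below 0.2 RPKM in sum in every library. Of the smooth muscle markers, Acta2 and Tagln made up most of sums of 504 to 512 RPKM in young and 536 to 611 RPKM in old, 0 of the 2 tested were called (Tagln was called higher without young replicate 1, limma adjusted p = 0.00798), and their part in the values of the 9 genes was not tested. Among 7 tested osteoblast markers Spp1 was called higher and Sp7 lower in old, at limma adjusted p = 0.0307 and 0.0186. Neither was called without young replicate 3 or without each old replicate in turn (limma adjusted p = 0.122 to 0.201). Spp1 was also not called without young replicate 2 (limma adjusted p = 0.0819) or by voom (adjusted p = 0.0687). Of the exonic bases of Spp1, 18.75% are shared with another gene. Without young replicate 1, 2 of the 7 were higher and 5 lower, where 13.2% of all tested genes were higher and 19.4% lower. In bulk RNA, fewer cells of a type and less RNA per cell cannot be told apart.

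Within each family the members carried a short signature of its working part. In the coding sequences of GENCODE release M21 (mouse genome GRCm38, which is mm10), each of the 6 MMP genes had 1 in-frame match to the zinc-binding site of metalloproteinases. They are shown to make visible what ties the family together, and capitals mark the codons of the 3 histidines, the catalytic glutamate and the glycine.
Mmp13: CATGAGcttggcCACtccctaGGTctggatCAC
Mmp3: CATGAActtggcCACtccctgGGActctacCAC
Mmp2: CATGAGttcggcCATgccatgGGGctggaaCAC
Mmp14: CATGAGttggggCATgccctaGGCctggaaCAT
Mmp11: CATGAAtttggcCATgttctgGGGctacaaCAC
Mmp19: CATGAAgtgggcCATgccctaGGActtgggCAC
Of the 33 bases, 21 to 27 were identical between any pair of the 6. The search pattern fixed part of these bases in advance, so this count was in part set by the search. The Mmp13 site lay in exon 5, at chr9:7276573-7276605 on the plus strand, and those of Mmp3, Mmp11, Mmp14 and Mmp19 were also in exon 5. In Mmp2, which has fibronectin-like repeats inserted in its catalytic domain, the site lay in exon 8, at chr8:92839279-92839311.

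The TIMPs bind that zinc through the first residues of the mature protein, a cysteine, 1 further residue and a second cysteine. The coding stretch that begins there was found once in frame in each of the 3 genes, with the cysteine codons in capitals.
Timp1: TGTagcTGTgccccaccccaccca
Timp2: TGCagcTGCtccccggtgcacccg
Timp3: TGCacaTGCtctcccagccatccc
Of the 24 bases, 13 to 16 were identical between pairs. Here too the search pattern fixed part of the bases in advance, so the count is no measure of how alike the genes are. The Timp3 stretch lay at chr10:86300923-86300946 and the Timp1 stretch at chrX:20871111-20871134, both on the plus strand.

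The RefSeq promoter table of build GRCm38 (250 bases before to 50 after each gene start) held 7 of the 9 members, all but Mmp2 and Mmp19. The stretches before the start are shown for the 3 members whose groups lay furthest apart by log2 fold change (Mmp13, Timp1 and Timp3), and, over 120 bases, for Mmp3, a neighbour of Mmp13 on chromosome 9 that had almost no reads. Capitals mark matches on either strand. The site of AP-1, a dimer of Fos and Jun proteins, was searched as TGANTCA, and a known variant of that site as TGAGTAA. The site of RUNX factors, which direct bone formation, was searched as AACCACA, and the core recognised by Ets factors as AGGAAG. Of the general promoter elements, the TATA box was searched as TATAAA, and the GC box, bound by factors of the Sp family, as GGGCGG.
Mmp13: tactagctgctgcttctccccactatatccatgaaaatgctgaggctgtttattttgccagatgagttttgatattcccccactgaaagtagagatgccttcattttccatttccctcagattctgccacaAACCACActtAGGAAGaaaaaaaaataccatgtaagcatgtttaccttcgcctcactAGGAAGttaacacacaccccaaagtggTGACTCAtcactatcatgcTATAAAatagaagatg
Mmp3: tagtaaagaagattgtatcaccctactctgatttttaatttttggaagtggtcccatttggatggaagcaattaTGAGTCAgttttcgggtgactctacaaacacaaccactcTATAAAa
Timp1: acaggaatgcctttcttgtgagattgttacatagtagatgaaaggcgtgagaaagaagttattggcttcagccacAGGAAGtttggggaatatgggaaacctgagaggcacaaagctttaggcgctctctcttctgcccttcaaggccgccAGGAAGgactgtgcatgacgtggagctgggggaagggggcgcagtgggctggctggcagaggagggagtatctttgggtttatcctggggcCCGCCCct
Timp3: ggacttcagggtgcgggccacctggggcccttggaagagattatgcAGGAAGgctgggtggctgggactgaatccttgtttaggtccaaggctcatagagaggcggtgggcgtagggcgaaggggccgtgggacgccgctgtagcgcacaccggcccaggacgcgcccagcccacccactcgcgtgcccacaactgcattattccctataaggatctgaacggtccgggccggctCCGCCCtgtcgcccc
The stretches are chr9:7272264-7272513 for Mmp13, chr9:7445702-7445821 for Mmp3, chrX:20869916-20870165 for Timp1 and chr10:86300162-86300411 for Timp3, all on the plus strand. Mmp13 held an AP-1 match at positions -35 to -29, a RUNX match at -119 to -113 and, between these, Ets matches at -109 to -104 and -62 to -57. Mmp3 held an AP-1 match at -46 to -40, and no other member with a promoter entry had a TGANTCA match. The variant TGAGTAA was found in Timp1 alone of the 7, at bases 27 to 33 after its start (chrX:20870192-20870198). It is shown within a stretch of 29 bases, chrX:20870181-20870209 on the plus strand.
Timp1 around the variant: cggtgggtggaTGAGTAAtgcgtccagga
Of all 32851 promoter windows of this length, 7.81% held TGANTCA, 2.68% held TGAGTAA, 5.27% the RUNX match, 35.4% the Ets match, 13.6% the TATA box and 35.7% the GC box. No motif match overlapped a match to another motif in the stretches shown. A match of letters describes the sequence and is not a measured binding site.

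Timp3 was called higher in old apoOBs. That call was lost without some single libraries, and part of the Timp3 exons is shared with the opposite-strand gene Syn3, as given below. The other members did not pass the test. Their values nevertheless differed in kind. Timp1 was higher and Mmp13 lower in every old library than in any young one. Mmp11 and Timp2 were also lower in every old library, by small amounts. The groups overlapped in Mmp2, Mmp14 and Mmp19, and Mmp3 was hardly detected. Members were tested with limma on log2(RPKM + 1) across the 12015 genes that reached 1 RPKM in 3 or more libraries, and called at a Benjamini-Hochberg adjusted p under 0.05. Of the 8 members that passed this filter 1 was higher and 0 were lower, where 1.57% of all tested genes were called, 1.47% higher and 0.0999% lower. With limma's voom on recovered reads it was also 1 of 8, against 1.63% of all genes. An unadjusted p under 0.05 was found in 4 of the 8 and in 1349 of all 12015 tested genes. The groups did not overlap in 5 of the 8 (2 higher and 3 lower in old), and neither did they in 20.8% of all tested genes (10.6% higher and 10.2% lower). The median log2 fold change was -0.04 over the 8 members and 0.01 over all tested genes.

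**Figure D1:**
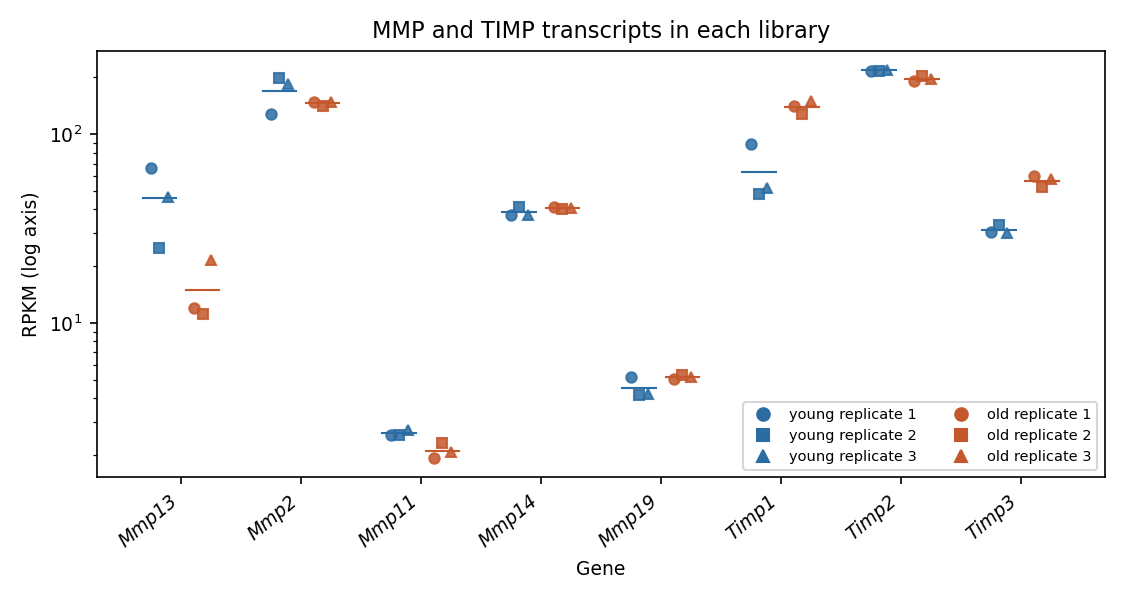
RPKM on a log axis of the 8 members that passed the filter, for each of the 3 young (blue) and 3 old (orange) libraries, with the group mean as a line and the marker shape giving the replicate number. Timp1 and Timp3 lie higher in all old libraries, and Mmp13 and, by small amounts, Mmp11 and Timp2 lie lower. Young replicate 1 (circle) lies above its group in Mmp13 and Timp1 and below it in Mmp2.

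Mmp13 encodes the collagenase of rodent bone, which cleaves the fibrils of type I and type II collagen, and is located at chr9:7272514-7283331 (mm10, plus strand). It was at 66.0, 25.1 and 46.8 RPKM in young replicates 1, 2 and 3, and in the old at 12.1, 11.2 and 21.6 RPKM. All 3 old libraries were below the lowest young one, although old replicate 3 came within a few RPKM of young replicate 2. Both groups were spread widely, with a coefficient of variation of 44.5% in young and 38.4% in old. The mean was 3.07 times as high in young as in old, at 46.0 ± 20.4 and 15.0 ± 5.75 RPKM (SD, n = 3 each). On the log2(RPKM + 1) scale the difference was -1.51 ± 0.40 (SE, 95% interval -2.47 to -0.55), larger in size than that of 99.4% of tested genes, yet it was not called over all genes (limma adjusted p = 0.191). Without young replicate 1 the difference was smaller, at -1.20, and was called (limma adjusted p = 0.0335), in a fit that called 32.6% of all tested genes.

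Mmp3, or stromelysin 1, degrades proteoglycans and activates other MMPs. It lies 162491 bases beyond the end of Mmp13 in the same run of MMP genes on chromosome 9, at chr9:7445822-7455975. It had 2, 4 and 2 recovered reads in the young libraries and 0, 0 and 1 in the old, where 3 reads correspond to 0.0197 to 0.0257 RPKM. The gene did not enter the main test, and no fold change is given at this depth. Mmp12 and Mmp8, the other rows of this run used here, reached at most 0.00366 and 0.0127 RPKM. Mmp13 was thus the 1 row of the 4 above 1 RPKM.

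Mmp2, gelatinase A, cleaves denatured collagen and is activated at the cell surface by Mmp14, the membrane-anchored collagenase MT1-MMP, together with Timp2. Mmp2 (chr8:92827291-92853420, plus strand) was the most abundant MMP, at 128, 198 and 184 RPKM in young and 148, 141 and 148 RPKM in old. Young replicate 1 lay below all old libraries and young replicates 2 and 3 above them, so the groups overlapped. The log2 difference was -0.19 ± 0.17 (SE, 95% interval -0.61 to 0.23, limma adjusted p = 0.856). Without young replicate 1 it was -0.38 and was called lower in old (limma adjusted p = 0.00542). Mmp14 (chr14:54431612-54441265, plus strand) was at 37.3, 41.4 and 37.3 RPKM in young and 41.4, 40.2 and 40.9 RPKM in old. Its values were nearly level across the 6 libraries, with a log2 difference of 0.08 ± 0.08 (SE, 95% interval -0.13 to 0.28, limma adjusted p = 0.908), and no alternative of those run called it.

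Mmp11, or stromelysin 3, and Mmp19 were the least abundant of the tested members. Mmp11 (chr10:75923222-75932502, minus strand), which is activated inside the cell by furin, was at 2.56, 2.55 and 2.71 RPKM in young and 1.93, 2.31 and 2.07 RPKM in old. The old libraries were all lower, by a small amount, with a log2 difference of -0.22 ± 0.08 (SE, 95% interval -0.42 to -0.02, limma adjusted p = 0.401), and it was not called without young replicate 1 either (limma adjusted p = 0.0524). Mmp19 (chr10:128790953-128800824, plus strand) was at 5.18, 4.16 and 4.21 RPKM in young and 5.09, 5.32 and 5.18 RPKM in old. Young replicate 1 was level with the old libraries and the other young ones were below them, and the log2 difference was 0.17 ± 0.10 (SE, limma adjusted p = 0.687). Without young replicate 1 it was 0.26 and was called higher (limma adjusted p = 0.0166). The last exon of Mmp19 shares 789 bases, 23.1% of its exonic length, with Tmem198b on the opposite strand. Whether counting used strand is not given in the sources used here, so reads of the pair cannot be told apart there and Mmp19 is uncertain.

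Timp1 encodes a secreted inhibitor that many cytokines induce. Its gene (chrX:20870166-20874735, plus strand) lies in an intron of Syn1, which runs the other way and shares no exonic base with it. Timp1 was at 88.4, 48.3 and 51.7 RPKM in young and 141, 129 and 150 RPKM in old. The groups did not overlap, and young replicate 1 was the young library nearest to the old ones. The mean was 2.23 times as high in old, at 62.8 ± 22.2 against 139.8 ± 10.4 RPKM (SD, n = 3 each). The log2 difference of 1.19 ± 0.24 (SE, 95% interval 0.62 to 1.76) exceeded in size that of 99.1% of tested genes but was not called (limma adjusted p = 0.0881). Without young replicate 1 it was 1.46 and was called (limma adjusted p = 5.98e-05), and without each of the other libraries it was not called.

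Timp2 was the most abundant member in both groups. It inhibits MMPs and also serves as the bridge through which Mmp14 activates the Mmp2 precursor. The gene (chr11:118301069-118355740, minus strand) was at 217.4, 217.6 and 218.7 RPKM in young and 191, 204 and 195 RPKM in old. The young libraries, replicate 1 included, agreed to a coefficient of variation of 0.326%, and all old libraries were lower. The log2 difference was -0.15 ± 0.08 (SE, 95% interval -0.35 to 0.06, limma adjusted p = 0.664). It was not called without young replicate 1 either (limma adjusted p = 0.0631).

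Timp3 binds to the matrix and inhibits ADAM proteases as well as MMPs. Its gene (chr10:86300372-86349506, plus strand) lies within Syn3, which is transcribed from the opposite strand. It was at 30.4, 33.0 and 29.9 RPKM in young and 59.9, 52.7 and 58.0 RPKM in old. The groups were well separated, and young replicate 1 lay among the other young libraries. Timp3 rose 1.83-fold by mean RPKM, from 31.1 ± 1.65 to 56.9 ± 3.74 (SD, n = 3 each), a log2 difference of 0.85 ± 0.09 (SE, 95% interval 0.62 to 1.07, limma adjusted p = 0.00934). The call held without young replicate 1 (limma adjusted p = 0.000796) and young replicate 2 (limma adjusted p = 0.0295). It was lost without young replicate 3 (limma adjusted p = 0.0832) and without each of the 3 old replicates (limma adjusted p = 0.0510 to 0.102), with log2 differences of 0.81 to 0.90. The last of its 8 exon blocks shares 1733 bases, 21.3% of the exonic length, with exons of Syn3 (chr10:86347774-86349506). The row for Syn3, a gene known from neurons, averaged 12.4 ± 3.11 RPKM in the young libraries and 21.9 ± 1.17 RPKM in the old (SD, n = 3 each), with limma adjusted p = 0.103 and, without young replicate 1, a call (limma adjusted p = 0.000147). Both genes were higher in each old library than in any young one. Reads in the shared stretch cannot be assigned to either strand from the sources used here, so the Timp3 level is uncertain by that part, and the part of Syn3 in the difference was not tested.

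**Figure D2:**
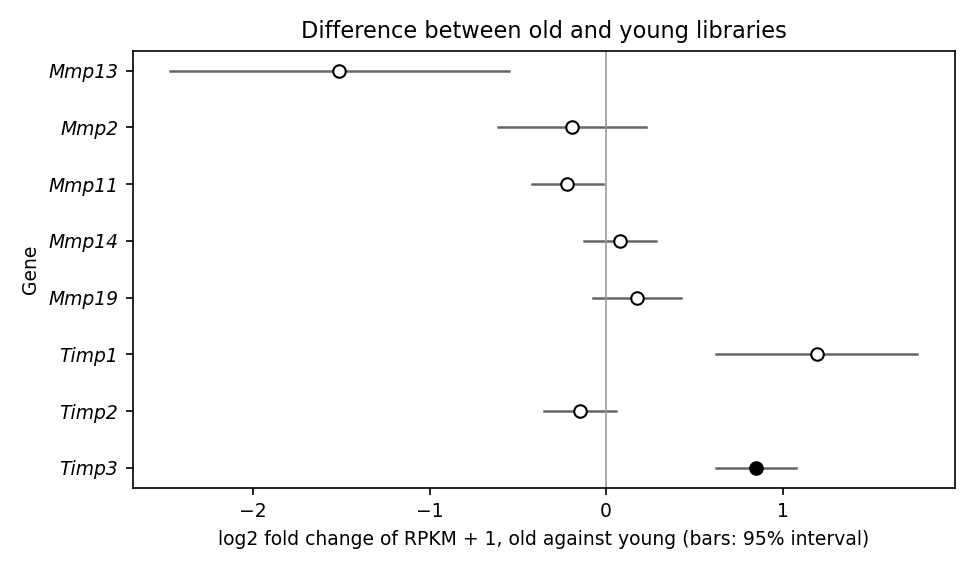
Log2 fold change of RPKM + 1 (x axis, old against young) of the 8 tested members with 95% intervals from limma; the filled point passed an adjusted p under 0.05 over all genes and open points did not. Timp3 is the 1 filled point, at 0.85, while Mmp13 (-1.51) and Timp1 (1.19) lie farther from 0 with wider intervals.

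**Figure D3:**
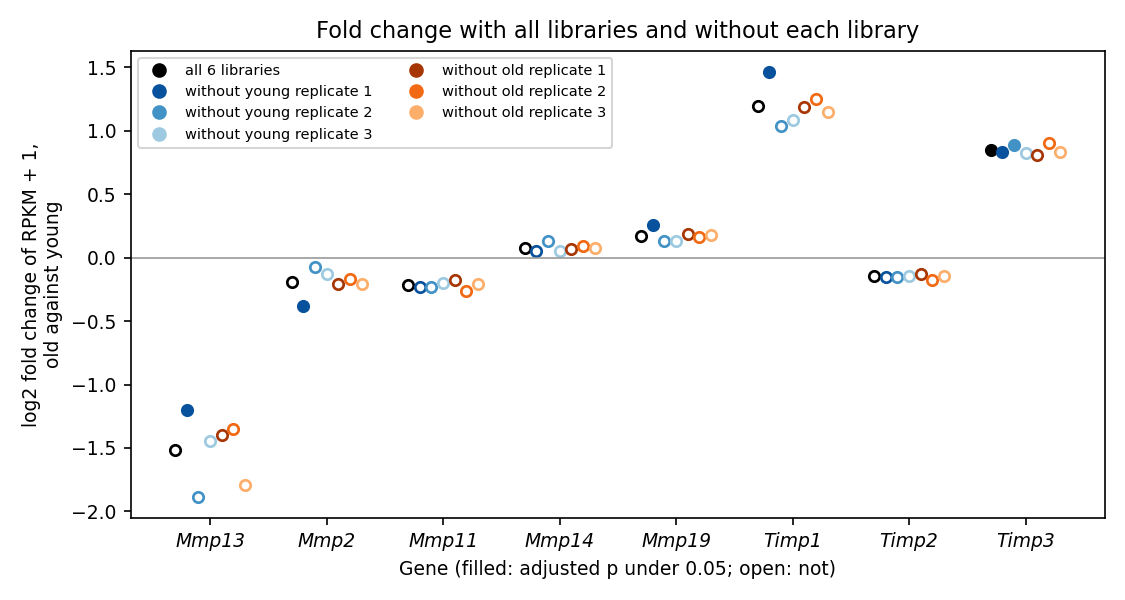
Log2 fold change of each tested member (y axis) with all 6 libraries (black) and without each library in turn (colours), filled where the adjusted p over all genes was under 0.05. No member changes sign, and most filled points belong to the fit without young replicate 1.

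Leaving out young replicate 1 changed more calls than any other omission. In that fit Timp1, Timp3 and Mmp19 were higher and Mmp2 and Mmp13 lower, 5 of 8, while 13.2% of all tested genes were higher and 19.4% lower. In Mmp13 and Timp1 the omitted library stood above the mean of the other young ones by 1.84-fold and 1.77-fold, and in Mmp2 it stood at 0.674 of it. Mmp13 and Timp1 therefore deviated the same way in that library although they differed in opposite directions between the groups. With library weights 7 of the 8 were called and 42.2% of all genes, with the trend on gene length removed 2 of 8 and 2.3%, and with the replicate number as a block 0 of 8 and 0.682%. The sign of the fold change was the same in every alternative run for each of the 8 tested members.

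By RPKM, which is scaled to gene length, the order in young was Timp2, Mmp2, Timp1, Mmp13, Mmp14, Timp3, Mmp19, Mmp11 and Mmp3. In this order the ranges of Timp1 and Mmp13 overlapped, as did those of Mmp13 and Mmp14. In old the order was Timp2, Mmp2, Timp1, Timp3, Mmp14, Mmp13, Mmp19, Mmp11 and Mmp3, and the ranges of Mmp2 and Timp1 overlapped. Mmp13 thus stood above Mmp14 and Timp3 on average in young and below both in every old library. Timp2 exceeded 97.6% of tested genes in young and 97.3% in old. Mmp11 exceeded 27.2% in young.

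The 3 TIMPs summed to 336, 299 and 300.4 RPKM in young and 392, 385 and 403 RPKM in old. The 6 MMPs summed to 239.5, 271 and 275 RPKM in young and 209, 200.3 and 218 RPKM in old. The ratio of the sums was 1.40, 1.10 and 1.09 in young and 1.88, 1.92 and 1.85 in old, a description of transcript levels that takes no account of protein or activity. Timp2 supplied 64.7 to 72.8% of the TIMP sum in young and 48.5 to 52.9% in old, and Timp1 16.2 to 26.3% and 33.4 to 37.1%. Mmp13 supplied 9.28 to 27.5% of the MMP sum in young and 5.61 to 9.90% in old. For 1 RPKM of Mmp13 there were 1.34, 1.92 and 1.11 RPKM of Timp1 in the young libraries and 11.7, 11.5 and 6.93 in the old.

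**Figure D4:**
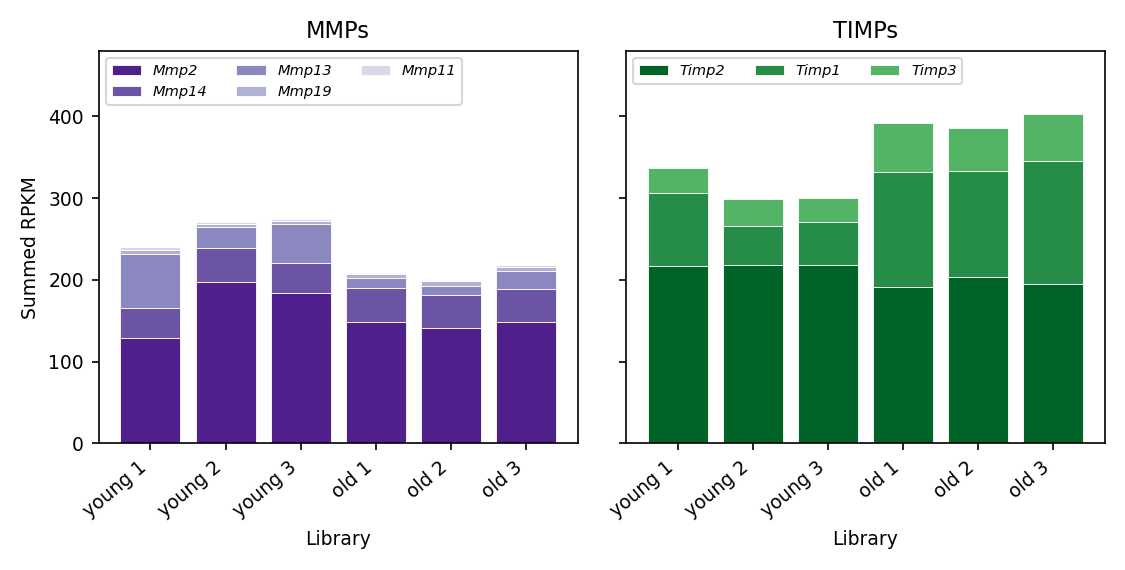
Summed RPKM of the MMP members (left, without Mmp3, which is too low to draw) and the TIMP members (right) in each library, as stacked bars on 1 shared axis from 0. The TIMP bars are taller in the old libraries, at 385 to 403 RPKM, mainly through Timp1, and the MMP bars are shorter.

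The genes nearest to each member were sought by the root mean square difference of centred log2(RPKM + 1) values over the 6 libraries. Timp3 was nearest to Herc6 (0.0357) and Mitd1 (0.0549), and Timp1 to Ly6e (0.102) and Psmb8 (0.105). Ly6e was at 4.90, 2.19 and 2.58 RPKM in young and 8.15, 8.96 and 8.18 RPKM in old, with young replicate 1 again highest among the young. Mmp13 had no close neighbour: Snord1a and Otor came nearest, at 0.480 and 0.484. These distances are not scaled to a member's own spread, so members that vary little have small ones. That spread (root mean square deviation from the mean) was 0.899 in Mmp13, 0.658 in Timp1, 0.430 in Timp3 and 0.0634 to 0.216 in the other tested members. Mmp2 was nearest to Zfp704 and Armcx3, Mmp11 to Plscr4 and Foxo4, Mmp14 to Pdcd10 and Utp15, Mmp19 to Riok1 and Ncl, and Timp2 to Fendrr and Phf3, at 0.0156 to 0.0298. Some of these share exonic bases with another gene (16.5% of Zfp704, 13.7% of Herc6, 9.46% of Mitd1, 6.80% of Psmb8, smaller parts of Riok1 and Ncl, and all of Snord1a), so their values are uncertain.

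Of the rest of the MMP family, 10 of 17 listed genes were used and 3 were tested. None was called by limma or voom, and none had an unadjusted p under 0.05. Mmp28, or epilysin, averaged 2.41 ± 0.697 RPKM in the young libraries and 2.76 ± 0.161 RPKM in the old, and the membrane-type gene Mmp16 at 2.35 ± 0.576 and 2.51 ± 0.219 RPKM (SD, n = 3 each). None of the 3 was called without young replicate 1, and there the signs of Mmp28 and Mmp16 turned, from log2 fold changes of 0.17 and 0.08 to -0.02 and -0.06. Mmp28 shares 466 exonic bases with a transcript on the opposite strand. The gelatinase B gene Mmp9 was at 0.410 ± 0.109 and 0.586 ± 0.116 RPKM and did not enter the test. None of 4 other inhibitors with values reached 1 RPKM in any library, Timp4 and the membrane-anchored Reck among them.

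Genes of plasminogen activation, a protease cascade that can activate MMP precursors, and of proprotein convertases gave no calls. Of 7 tested, 0 were called by limma or voom and 2 had an unadjusted p under 0.05, as did 1349 of all 12015 tested genes. Plaur, the urokinase receptor gene, averaged 5.98 ± 0.422 RPKM in the young libraries and 7.71 ± 0.134 RPKM in the old (SD, n = 3 each), and its groups did not overlap. It was not called with all libraries (limma adjusted p = 0.211) and was called higher without young replicate 1 (limma adjusted p = 0.0127). In that fit 2 of the 7 were higher and 0 lower, against 13.2% higher and 19.4% lower of all tested genes.

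ADAM and ADAMTS proteases, relatives of the MMPs of which several are inhibited by Timp3, had 11 tested members. None was called by limma or voom, none had an unadjusted p under 0.05, and the median log2 fold change was -0.02. Those of smallest p were Adam23, at 5.71 ± 1.26 and 6.41 ± 0.308 RPKM, and Adamts10, at 5.06 ± 0.867 and 4.65 ± 0.158 RPKM (SD, n = 3 each). Without young replicate 1, 4 of the 11 were lower and 0 higher, Adamts10 among the lower (limma adjusted p = 0.0316). That fit called 13.2% of all tested genes higher and 19.4% lower. The sign of Adam23 turned in it (log2 fold change 0.16 with all libraries and -0.0026 without young replicate 1). Of 11 tested genes for docking and clearance of MMPs and TIMPs, 0 were called by limma or voom and 0 had an unadjusted p under 0.05. The hyaluronan receptor gene Cd44 was at 15.6 ± 5.36 and 20.8 ± 2.22 RPKM and the syndecan gene Sdc1 at 19.9 ± 1.43 and 21.6 ± 0.146 RPKM (SD, n = 3 each). In the fit without young replicate 1, 2 of these 11 were called higher and 3 lower, neither Cd44 nor Sdc1 among them. The shares over all tested genes were again 13.2% higher and 19.4% lower.

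Transcription factors known to act on MMP promoters were tested in 11 of 12 cases, and 1 was called. Fosl1, or Fra-1, a partner of Jun proteins in AP-1, was at 5.31, 8.45 and 7.92 RPKM in young and 30.5, 33.0 and 35.5 RPKM in old. It rose 4.57-fold by mean RPKM, a log2 difference of 2.07 ± 0.17 (SE, limma adjusted p = 0.00265), and the call held without each of the 6 libraries. Fos, the founding member of that family, was at 27.5, 54.3 and 51.3 RPKM in young and 19.1, 18.9 and 11.3 RPKM in old. All old libraries were below the young ones, with a log2 difference of -1.36 ± 0.32 (SE) that was not called (limma adjusted p = 0.142). The difference without young replicate 1 was -1.66 and was called lower (limma adjusted p = 0.00356). Fosl1 was 0.154 to 0.193 times as abundant as Fos in the young libraries and 1.60 to 3.16 times in the old. Runx2, named after its values were seen because of the RUNX match in the Mmp13 promoter, was at 5.11 ± 0.809 and 3.91 ± 0.203 RPKM (SD, n = 3 each, limma adjusted p = 0.423), and was called lower without young replicate 1 (limma adjusted p = 0.00556). In that fit 3 of the 11 were higher and 4 lower, where 13.2% of all tested genes were higher and 19.4% lower. Etv4, 1 of the 11, was at 0.501 to 0.880 RPKM in young and 1.29 to 1.44 RPKM in old. It passed the filter only through the old libraries, so its place in these counts adds no support. Whether these levels bear on Mmp13 or Timp1 was not tested.

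**Figure D5:**
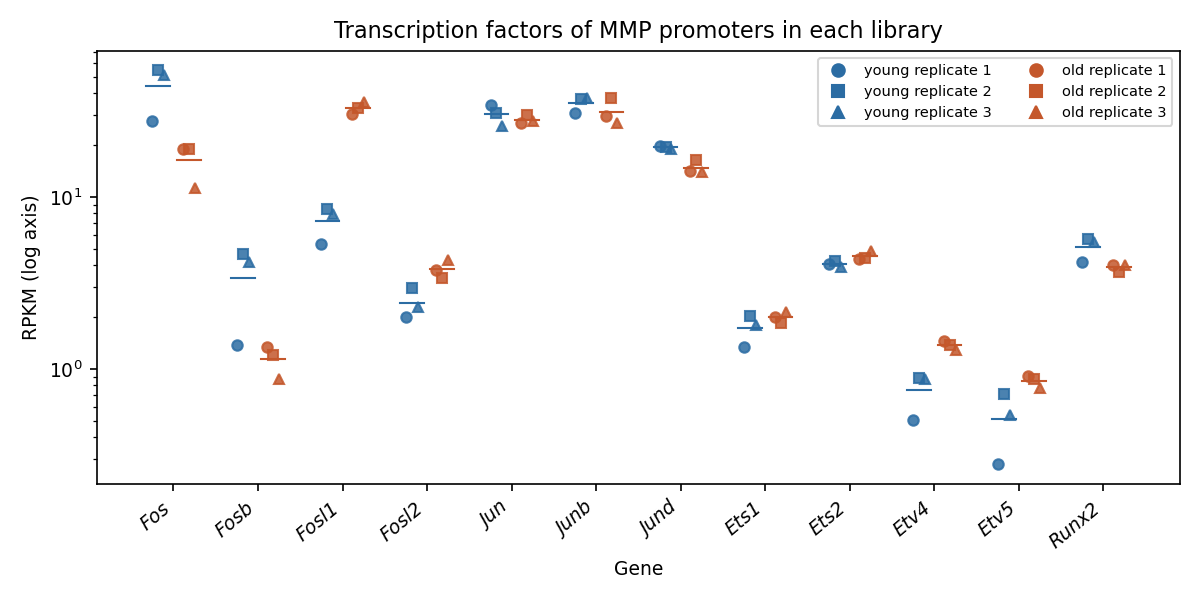
RPKM on a log axis of 12 transcription factor genes in each library, young in blue and old in orange, with the group mean as a line and the marker shape giving the replicate number. Fosl1 lies higher in all old libraries (30.5 to 35.5 against 5.31 to 8.45 RPKM), and Fos and Fosb lie lower.

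Among 12 tested cytokine and receptor genes known to induce MMPs or TIMPs, 2 were called higher and 0 lower, and 3 and 0 without young replicate 1. Of all tested genes, 1.47% were called higher and 0.0999% lower with all libraries, and 13.2% and 19.4% without young replicate 1. Lif was at 0.213, 0.563 and 0.449 RPKM in young and 1.53, 1.49 and 1.62 RPKM in old (limma adjusted p = 0.0161). Il6 was at 0.825, 0.626 and 0.656 RPKM in young and 1.90, 2.04 and 3.25 RPKM in old (limma adjusted p = 0.0477). Both encode cytokines that signal through the shared receptor chain of Il6st. Neither was at 1 RPKM in a young library, which means that the filter itself selected them for being higher in old, and their calls add no support. Lif was no longer called without young replicate 3 or without each old replicate in turn (limma adjusted p = 0.0932 to 0.118), nor Il6 without young replicate 2, young replicate 3 or each old replicate in turn (limma adjusted p = 0.0568 to 0.226). Markers of cartilage cells, which also make Mmp13, were present, and the defining gene of the hypertrophic stage, Col10a1, was at or near 0. The 4 cartilage markers with values summed to 34.4 to 73.3 RPKM in young and 53.2 to 56.8 RPKM in old, Col2a1 and Sox9 being the 2 above 1 RPKM. These 2 markers were not called with all libraries. Both were called lower in old without young replicate 1, where 19.4% of all tested genes were lower. Their part in the Mmp13 values was not tested.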

How the data were processed

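Messenger RNA was sequenced from apoptotic osteoblasts, 3 libraries from young and 3 from old mice, grouped by sample title. The submitters' processing notes name fastp, STAR, HTSeq, edgeR and the build mm10, with no versions. Settings, gene annotation and strandedness: not given in the sources used here. RPKM values were deposited by the authors as 1 table with exon positions and gene lengths. RPKM times length summed to 1000000 per library, and 100% of values were whole multiples of 1 read within 0.01. Among genes with 1 to 5 reads, 77.5 to 79.3% had an even number, so recovered reads are not independent molecules and floors of 3 reads cover counting error only.

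Limma 3.58.1 (R 4.3.3) was fitted to log2(RPKM + 1), modelling group alone with a mean-variance trend, over the 12015 genes that reached 1 RPKM in 3 or more libraries. Tests were two-sided, adjusted by Benjamini-Hochberg over all tested genes, called under 0.05 with no minimum fold. Fold changes on that scale understate changes of low genes. Folds of mean RPKM carry no pseudocount. The procedure was tested on simulated data. A chi-square test of recovered reads found no duplicate libraries (9.51 to 483 per degree of freedom). The members and lists were chosen with earlier results of these data known. Named genes were all members, each list's called genes (or its 2 of smallest p), and each member's 2 nearest genes. 1 gene that this rule names is not reported here.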

Additional observations from a re-analysis of the deposited data

How the results depend on the processing

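The number of called genes depended mainly on young replicate 1. Leaving out each library in turn, with the tested genes kept the same, gave 80 to 3918 called genes against 189 with all 6, 0 to 5 called members against 1, and 1 to 21 called genes of the other lists against 3. The highest of each came without young replicate 1. Library weights estimated from the data gave 5076 genes (2119 higher and 2957 lower), 7 members (all tested but Mmp14) and 23 list genes. At a mean RPKM of at least 5, which tests fewer genes, there were 107 called genes and 1 list gene, and without a filter 1 list gene. With each library's trend on gene length removed, 2 members were called, Timp1 (limma adjusted p = 0.0373) and Timp3. Pseudocounts of 0.1 and 0.5, the other scalings and variance models, and voom left the member count at 1. No scaling moved the median of all genes by more than 0.1.

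Same-numbered young and old libraries deviated from their group means with correlations of -0.0257, -0.436 and 0.329. Young replicate 1 correlated best with old replicate 2 (0.408) and young replicate 2 with old replicate 3 (0.431). With 3 libraries per group these correlations cannot decide whether the numbers pair the samples, and the labels state no pairing. With the replicate number as a block, 82 genes, 0 members and 1 list gene were called, and Timp3 had a limma adjusted p of 0.115 with 2 residual degrees of freedom. Mmp3, at 0 to 4 reads, was too shallow for a comparison. Of the other genes kept out by the filter, some, such as Mmp9, lay above the level of 3 reads, and others, such as Mmp12 and Acp5, were at or near 0.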
